A study of Homo sapiens with 12 samples.

Results

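The fibulins (FBLN1, FBLN2, FBLN5, EFEMP1 and EFEMP2), the fibrillins (FBN1 and FBN2), elastin (ELN) and the adhesive glycoproteins fibronectin (FN1) and tenascin-C (TNC) were followed in SJSA-1 cells, a human osteosarcoma line. These 10 genes were taken by symbol from a table of 59248 rows, and each had 1 row with an Ensembl identifier. In the data, 6 libraries from cells with a stable RUNX2 shRNA-1 (sh1) are set against 6 libraries from cells with a stable scramble shRNA (shNC). Both kinds of cell carried a lentiviral vector with a U6 promoter for the shRNA, EGFP and a puromycin marker, and both were kept under puromycin until all cells were EGFP positive, so each group is an infected and selected population rather than an untouched line. A single shRNA against RUNX2 stands against a single control, and nothing in the labels says that the libraries of a group came from separate cultures or infections. The p-values therefore speak only of the spread among these libraries, and that spread may be technical.

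Elastic fibres consist of a core of cross-linked elastin on a scaffold of fibrillin microfibrils. Fibulins are calcium-binding glycoproteins that bind fibrillin, elastin and basement membrane proteins, and some of them bring tropoelastin and the lysyl oxidases that cross-link it onto the microfibril. Fibronectin is assembled into fibrils by cells through integrins and is needed in culture for other matrix proteins to deposit, while tenascin-C is an oligomeric glycoprotein that modulates adhesion to fibronectin. RUNX2 is the transcription factor that drives osteoblast differentiation, and bone cells in culture secrete fibronectin, fibrillins and several fibulins.

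Of the 10 genes, FBLN1, EFEMP2 and FBN1 were higher in sh1, TNC was lower, EFEMP1, FBN2 and FN1 were not called, and FBLN2, FBLN5 and ELN had too few counts for the test across genes. FBLN1 had the largest fold change of the tested genes of the set, at 4.40-fold (95% interval 3.64 to 5.32). The increases of EFEMP2 and FBN1 were 1.76-fold (1.44 to 2.14) and 1.67-fold (1.49 to 1.88), and TNC was at 0.77 of its shNC level (0.67 to 0.88). Counts were compared with edgeR's quasi-likelihood test over the 16489 genes that passed its filter on low counts, and a gene was called at a Benjamini-Hochberg adjusted p under 0.05. Over all tested genes, 12.8% were called higher and 13.3% were called lower in sh1, against 3 and 1 of the 7 tested members. All 7 reached the level of the filter in all 12 libraries, so none entered the test through 1 group alone. The median log2 fold change of these 7 members was 0.52, that of all tested genes was -0.0035, and all fold changes are sh1 over shNC.

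The target of the shRNA and the make-up of the libraries were examined first. RUNX2 had 21.6 to 27.4 CPM (counts scaled to library size after TMM normalization) in sh1 and 35.5 to 46.2 CPM in shNC, a log2 fold change of -0.69 (SE 0.076, adjusted p = 4.6e-06). Total gene counts were 11239638 to 16346022 in sh1 and 15328312 to 19992974 in shNC, and sh1 replicate 3 was the smallest library. Entries without an Ensembl identifier took 1.23% of the counts of sh1 replicate 3 and 0.468% to 0.531% in the other sh1 libraries, and the lowest sh1 level of 5 of 9 members (EFEMP1, FBN1, FBN2, TNC and ELN) was in this library. On the first principal component (42.0% of the variance), sh1 libraries lay at -20.6 to -13.5 and shNC libraries at 8.45 to 24.1, with shNC replicates 3 and 4 nearest to sh1. MDM2 and CDK4, which lie in a region known to be amplified in SJSA-1, summed to 117 to 138 FPKM in sh1 and 104 to 125 FPKM in shNC. Of 8 osteoblast markers, 4 (SP7, ALPL, IBSP and BGLAP) were under 0.5 FPKM in every library, and the summed level of the list was 418 to 544 FPKM in sh1 and 279 to 331 FPKM in shNC, most of it SPARC. All markers of fibroblasts (4 of 4), endothelium (3 of 3), leukocytes (4 of 4) and epithelium (3 of 3) were under 0.5 FPKM in every library. Smooth muscle markers summed to 8.55 to 10.04 FPKM in sh1 and 2.99 to 3.92 FPKM in shNC, with 2 of 5 genes under 0.5 FPKM in every library. TAGLN and ACTA2, which encode actin cytoskeleton proteins, were higher in sh1 in edgeR. Their log2 fold changes were 2.05 (adjusted p = 9.7e-10) and 0.83 (adjusted p = 6.7e-06), and their part in the changes of matrix genes was not tested. MYH11 of the same list was not called (0.17, adjusted p = 0.61), and CNN1 and DES did not pass the filter. In these bulk libraries, fewer cells of a type and less RNA per cell cannot be told apart.

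Stretches upstream of the RefSeq transcription start (build GRCh38.p14) are printed for FBLN1, FBN1 and TNC, all called, and for FN1, the most abundant member. The reason is that a DNA-binding factor was knocked down, and the letters of its core site can be looked for in them. EFEMP2 was also called and its window was searched, but no stretch of it is printed. The stretches are cut to bases outside annotated exons and read 5′ to 3′ on the strand of the gene. They are chr22:45502633-45502831 (FBLN1, plus strand), chr15:48644971-48645220 (FBN1, minus strand), chr2:215436074-215436252 (FN1, minus strand) and chr9:115118208-115118407 (TNC, minus strand). Capitals mark GGGCGG or its complement (the GC box) and TGACGTCA (the cyclic AMP response element).
FBLN1: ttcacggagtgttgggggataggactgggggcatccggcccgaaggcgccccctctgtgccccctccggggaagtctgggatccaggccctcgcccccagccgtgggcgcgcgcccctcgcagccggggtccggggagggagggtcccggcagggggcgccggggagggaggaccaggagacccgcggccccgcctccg
FBN1: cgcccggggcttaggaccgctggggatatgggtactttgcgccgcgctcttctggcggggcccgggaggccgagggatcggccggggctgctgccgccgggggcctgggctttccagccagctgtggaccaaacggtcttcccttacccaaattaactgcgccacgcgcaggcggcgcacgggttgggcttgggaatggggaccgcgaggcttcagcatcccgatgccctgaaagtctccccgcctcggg
FN1: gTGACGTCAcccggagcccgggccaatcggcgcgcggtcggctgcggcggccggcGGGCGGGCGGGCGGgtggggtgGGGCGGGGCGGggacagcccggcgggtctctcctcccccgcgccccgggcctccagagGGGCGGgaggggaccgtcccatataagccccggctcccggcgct
TNC: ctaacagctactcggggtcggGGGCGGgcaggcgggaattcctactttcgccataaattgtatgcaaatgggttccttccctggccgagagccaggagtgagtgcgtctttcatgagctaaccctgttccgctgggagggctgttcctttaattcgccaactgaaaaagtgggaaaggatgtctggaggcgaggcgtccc
The printed FN1 stretch held 1 cyclic AMP response element and 6 GC boxes, and the TNC stretch held 1 GC box. The FBLN1 and FBN1 stretches held no match, but the full FBLN1 window held 1 GC box outside the printed stretch. Of the 10 genes, 8 had an entry (none for EFEMP1 and ELN), with 10 windows of 250 bases before a start in all. The RUNX letters searched were TGTGGT and TGCGGT on both strands, and they occurred in 0 of these 10 windows, against 16.3% of the 35116 windows of the table. The element TGACGTCA occurred in 1.65% of all windows and the GC box in 42.6%. Among the members, full windows of FN1, FBLN2, FBN2, TNC, EFEMP2, FBLN5 and FBLN1 held a GC box. The FBN1 window and the second FBLN2 window held none. Neither TGAGTCA nor its complement TGACTCA (4.20% of all windows) was in a window of the 10 genes. The window of FN1 was 76.4% G and C, those of FBLN1, FBN1 and TNC were 77.6%, 69.6% and 54.8%, and the median of all windows was 58%. Some windows lay inside the GENCODE span of their gene, among them those of FBLN1, FBN1 and FBN2. These 3 spans begin further upstream, at 45502238, 48645721 and 128659185. Other annotated starts were not searched, so the absence of the RUNX letters covers these windows only. These matches describe letters in a window and say nothing on binding.

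Levels were compared between genes per length, in FPKM (fragments scaled by gene length and by library depth). The gene length was 5397 bases for EFEMP2 and 17315 bases for FN1, at or near the length of all annotated exons merged. It is not that of a single transcript, so the order, shares and ratios of genes depend on the annotation. FN1 and EFEMP1 held most of the fragments per length of the 10 genes in both groups, at 52.8% and 31.6% of the summed FPKM in sh1 and 44.2% and 37.8% in shNC. In sh1 the order of the mean FPKM was FN1, EFEMP1, TNC, FBN2, EFEMP2, FBN1, FBLN1, ELN, FBLN2 and FBLN5. The ranges of FBN2 and EFEMP2, of EFEMP2 and FBN1, and of ELN and FBLN2 overlapped in that order. In shNC the order was the same apart from FBLN2 lying above ELN, and the ranges of FN1 and EFEMP1 and of EFEMP2 and FBN1 overlapped.

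**Figure D1:**
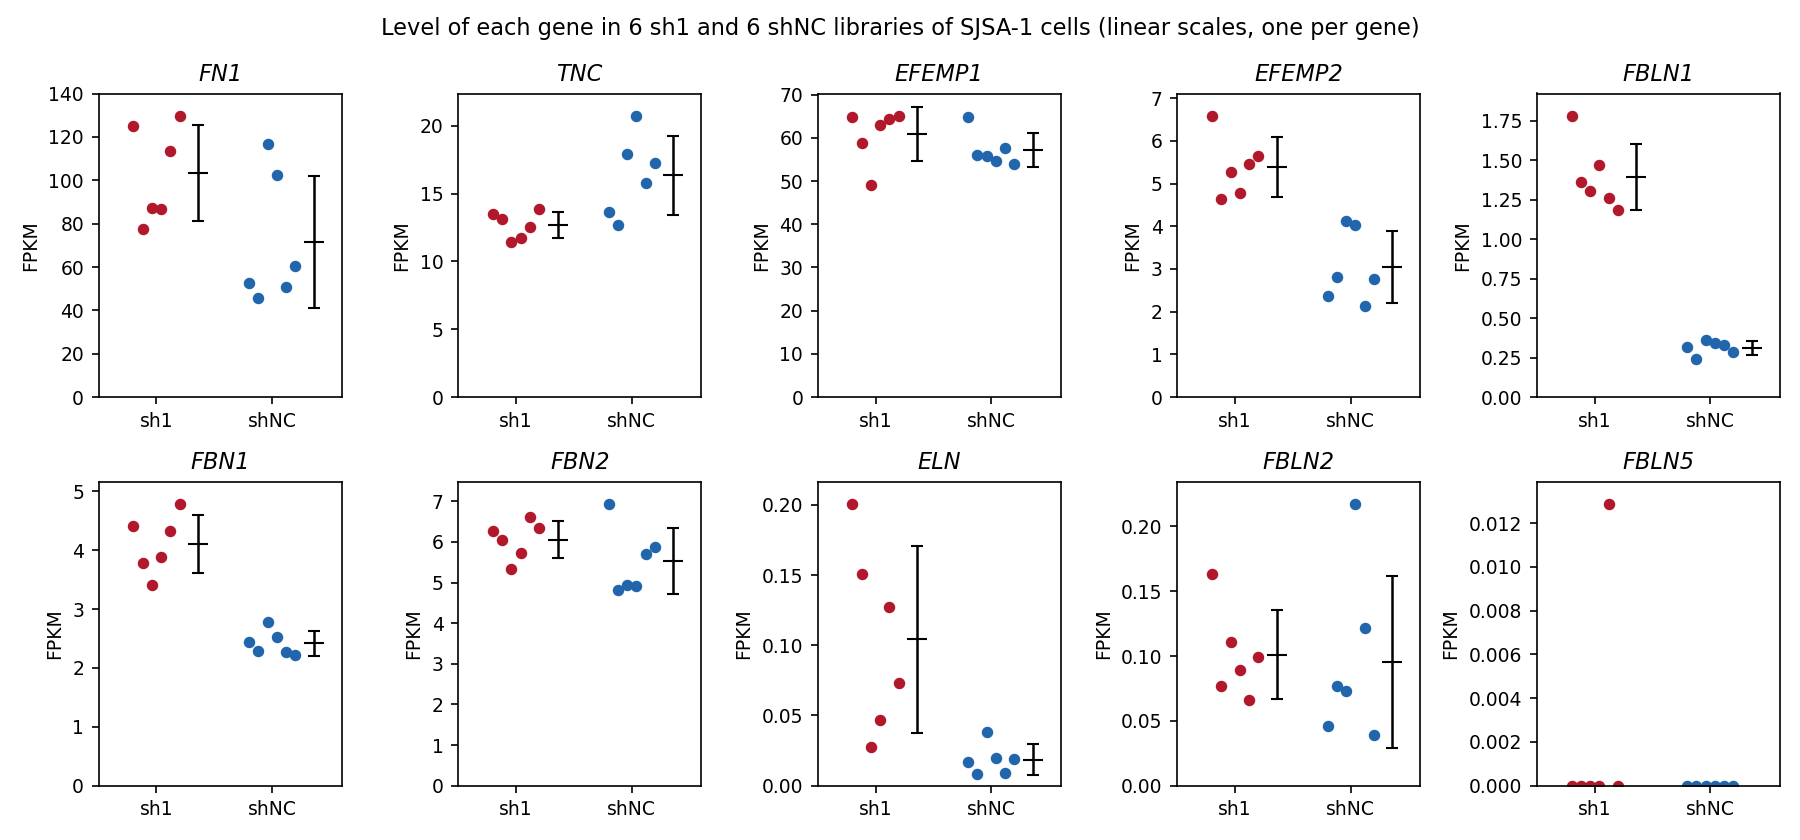
Level of the 10 genes in FPKM (vertical axes, linear, one scale per gene) in the 6 sh1 and 6 shNC libraries, each point being a library in replicate order and each bar a mean with its SD (none for FBLN5, which had 1 count in all). The sh1 points of FBLN1, EFEMP2 and FBN1 lie above all shNC points, and those of the other genes overlap.

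Among the fibulins, FBLN1, which encodes fibulin-1 of basement membranes and elastic fibres, changed most. The gene lies on chromosome 22 from 45502238 to 45601135 (plus strand, GRCh38, GENCODE 44), and no annotated gene overlaps it. Its FPKM was 1.78, 1.36, 1.31, 1.47, 1.26 and 1.19 in sh1 replicates 1 to 6, against 0.319, 0.239, 0.364, 0.340, 0.330 and 0.285 in shNC replicates 1 to 6. Every sh1 library was higher than every shNC library. The SD was 0.212 FPKM in sh1 (15.2% of the mean) and 0.0444 FPKM in shNC (14.2% of the mean), n = 6 each. The counts behind these values were modest, 107 to 198 per library in sh1 and 33 to 53 in shNC. The log2 fold change was 2.14 (SE 0.13, adjusted p = 4.4e-09), and the exact permutation test of the mean CPM gave p = 0.0022, the smallest that 924 splits allow (two-sided). Of the 7 tested members, FBLN1 was also the only one with a log2 fold change of at least 1, which 1.2% of all tested genes reached as called increases. On the log2(FPKM + 1) scale, which compresses a gene of this level, its difference was 0.86.

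EFEMP2, also called fibulin-4, binds lysyl oxidase and is needed for elastin cross-linking in mice. It is a compact gene of 7152 bases on chromosome 11 (65866441 to 65873592, minus strand). Its FPKM was 6.58, 4.64, 5.26, 4.78, 5.45 and 5.65 in sh1, against 2.37, 2.82, 4.13, 4.03, 2.14 and 2.75 in shNC. All sh1 libraries were above all shNC libraries, but the shNC libraries fell into a wide range, with replicates 3 and 4 closest to sh1. In edgeR the log2 fold change was 0.81 (SE 0.14, adjusted p = 3.0e-04), with p = 0.0022 in the exact permutation test. EFEMP2 shares 11 exonic bases with MUS81 on the opposite strand (410 to 626 counts per library), and the library kit does not mark strand.

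EFEMP1, also called fibulin-3, an abundant secreted fibulin, was the second most abundant of the 10 genes. It had 49.1, 63.7 and 65.1 FPKM (lowest, median and highest) in sh1 and 54.0, 56.0 and 64.8 FPKM in shNC. The groups overlapped through sh1 replicate 3, the lowest of all libraries, and shNC replicate 1, which lay among the high sh1 libraries, and the other sh1 libraries lay above the other shNC libraries. The log2 fold change was 0.07, with a 95% interval of -0.08 to 0.22 and an adjusted p of 0.48 in edgeR. It was 0.14 without sh1 replicate 3 (adjusted p = 0.081) and 0.12 without shNC replicate 1 (adjusted p = 0.19), and missed the threshold in both. EFEMP1 made up 89.8% ± 1.25 of the summed FPKM of the 5 fibulins in sh1 and 94.3% ± 1.59 in shNC, while FBLN1 made up 2.07% ± 0.308 in sh1 and 0.517% ± 0.0733 in shNC (SD, n = 6 each). The ratio of EFEMP1 to EFEMP2 was 11.4 ± 1.53 in sh1 and 20.1 ± 6.09 in shNC, and the groups did not overlap (9.33 to 13.2 in sh1, 13.5 to 27.3 in shNC). These ratios are descriptions with no test.

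FBLN2 and FBLN5 were close to or at the limit of detection. FBLN2, a fibulin of basement membranes and elastic matrix, had 5 to 12 counts per library in sh1 and 3 to 16 in shNC, and only 1 library of each group reached the filter's level of 0.623 CPM. Its mean was 0.484 CPM in sh1 and 0.462 CPM in shNC, with p = 0.88 in the exact permutation test. FBLN5, which links elastin to cell surface integrins, had 1 count among the 89400482 counts of sh1 and 0 among the 105234609 counts of shNC. In shNC, the limit of 3 counts that a count of 0 allows corresponds to 0.0285 CPM over the whole group. A difference in FBLN5 was not detectable at this depth, and this limit covers counting error only.

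The fibrillins moved unequally. FBN1, which encodes the main fibrillin of microfibrils after birth and is mutated in Marfan syndrome, spans 237409 bases of chromosome 15 (48408313 to 48645721, minus strand), with 66 exons in its canonical transcript. Its FPKM was 4.41, 3.79, 3.41, 3.89, 4.33 and 4.78 in sh1, against 2.44, 2.28, 2.79, 2.53, 2.28 and 2.21 in shNC. The lowest sh1 library, replicate 3, was still above the highest shNC library, also replicate 3. The increase was 0.74 on the log2 scale (SE 0.079, adjusted p = 2.7e-06), with p = 0.0022 in the exact permutation test. FBLN1, EFEMP2 and FBN1 were thus the 3 of 7 tested members whose sh1 libraries all lay above the shNC libraries, which was the case for 5.84% of all tested genes, and no member lay wholly below, as 6.08% of tested genes did.

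FBN2, the fibrillin best known from embryonic microfibrils, was measured at 5.34, 6.16 and 6.62 FPKM (lowest, median and highest) in sh1 and 4.82, 5.32 and 6.92 FPKM in shNC. The highest of all 12 libraries was shNC replicate 1, and the groups overlapped. The log2 fold change was 0.11, with a 95% interval of -0.07 to 0.30 and an adjusted p of 0.37 in edgeR. Without shNC replicate 1 it was 0.20 and passed the threshold (adjusted p = 0.045). FBN2 shares 56 exonic bases with SLC27A6 on the opposite strand, which had 16 to 27 counts per library.

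Within a library, FBN2 was above FBN1 in all 12 libraries. The ratio of FBN2 to FBN1 was 1.48 ± 0.10 in sh1 and 2.30 ± 0.422 in shNC (SD, n = 6 each). The ratios ran between 1.33 and 1.59 in sh1 and between 1.78 and 2.84 in shNC, so that the groups did not overlap. In sh1 the ratio hardly varied between libraries, whereas in shNC it was lowest in replicates 3 and 4.

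**Figure D2:**
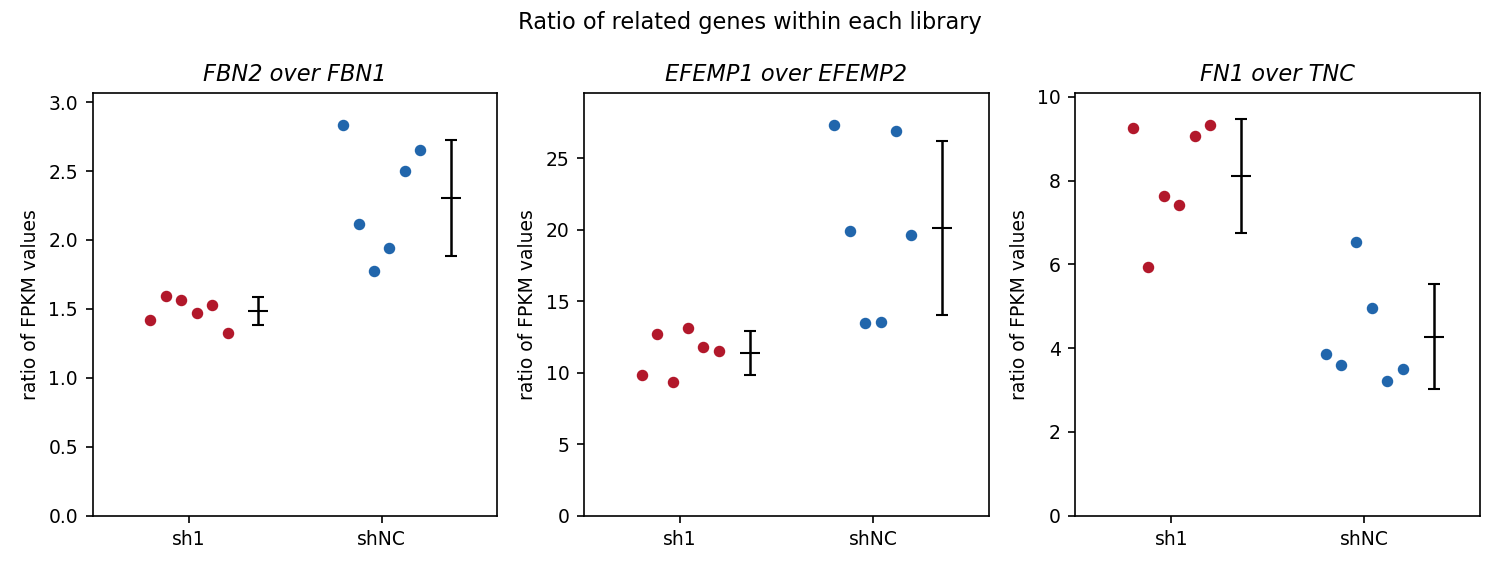
Ratio of the FPKM of FBN2 to FBN1, EFEMP1 to EFEMP2 and FN1 to TNC (vertical axes, linear) within each sh1 and shNC library, each point being a library and each bar the mean of 6 libraries with its SD. The first and second ratio are lower in every sh1 library (at most 1.59 and 13.2) than in every shNC library (at least 1.78 and 13.5), and the third overlaps between the groups.

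ELN, which encodes tropoelastin, was barely expressed in either group. It had 20, 16, 2, 5, 13 and 7 counts in sh1, against 2, 1, 5, 2, 1 and 2 in shNC, and at this depth a few fragments decide each value. In FPKM, sh1 replicate 3 (0.0272) lay below shNC replicate 3 (0.0382), and the other sh1 libraries lay above all shNC libraries. Only 3 sh1 libraries and no shNC library reached the level of the filter, and ELN had no place in the edgeR fit across genes. The mean was 0.680 CPM in sh1 and 0.122 CPM in shNC, a ratio of 5.56, with p = 0.0043 in the exact permutation test. Leaving out 1 library at a time, the ratio was 4.54 to 7.04 and the exact p was 0.0022 to 0.022. In edgeR with no filter on low counts the log2 fold change was 2.41 (adjusted p = 1.3e-04), and with DESeq2 it was 2.47 (adjusted p = 4.1e-04). With limma on log2(FPKM + 1) and no filter, a scale that compresses such low levels, it was 0.11 and missed the threshold (adjusted p = 0.071). ELN shares 165 exonic bases with ELN-AS1 on the opposite strand (8 to 18 counts per library), so some of its few fragments cannot be assigned to a strand.

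Fibronectin was the most abundant and the most variable of the tested members. The gene lies on chromosome 2 from 215360440 to 215436073 (minus strand) with 27 annotated transcripts, which the gene counts do not separate. FN1 had 124.9, 77.7, 87.1, 86.7, 113 and 129.6 FPKM in sh1, against 52.6, 45.7, 117, 102.5, 50.9 and 60.4 FPKM in shNC. In shNC, replicates 3 and 4 lay within the range of sh1, and the other shNC libraries lay below every sh1 library. The mean was 103 ± 22.2 FPKM in sh1 and 71.5 ± 30.3 FPKM in shNC (SD, n = 6 each). The log2 fold change was 0.52 (SE 0.20, 95% interval 0.09 to 0.94), which missed the threshold with an adjusted p of 0.068 in edgeR and p = 0.071 in the exact permutation test. The call depended on single libraries: without shNC replicate 3 the log2 fold change was 0.72 (adjusted p = 0.0068), without shNC replicate 4 it was 0.65 (adjusted p = 0.020), and without sh1 replicate 2 it was 0.60 (adjusted p = 0.047). It also passed in edgeR with no filter on low counts (0.51, adjusted p = 0.0017). In that fit FBLN1, EFEMP2, FBN1 and TNC also had smaller adjusted p-values at nearly unchanged fold changes, such as 7.4e-20 for FBLN1. FN1 stayed uncalled under 20 of 25 alternatives, among them DESeq2 (adjusted p = 0.18) and edgeR with robust dispersion (adjusted p = 0.18).

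TNC was the one member called lower. The gene lies on chromosome 9 from 115019575 to 115118207 (minus strand) and shares 129 exonic bases with the opposite DELEC1, which had 2 to 8 counts per library. Its FPKM was 13.5, 13.1, 11.4, 11.7, 12.5 and 13.9 in sh1, against 13.7, 12.7, 17.9, 20.7, 15.8 and 17.3 in shNC. The groups overlapped through shNC replicates 1 and 2, and the other shNC libraries were above all sh1 libraries. In edgeR the log2 fold change was -0.38 (SE 0.091, adjusted p = 0.0052), with p = 0.013 in the exact permutation test. TNC was no longer called with limma on log2(FPKM + 1) and no filter (adjusted p = 0.080). The ratio of FN1 to TNC was 8.11 ± 1.36 in sh1 and 4.28 ± 1.26 in shNC (SD, n = 6 each), and 1 sh1 library (5.93) lay below the highest shNC library (6.53).

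**Figure D3:**
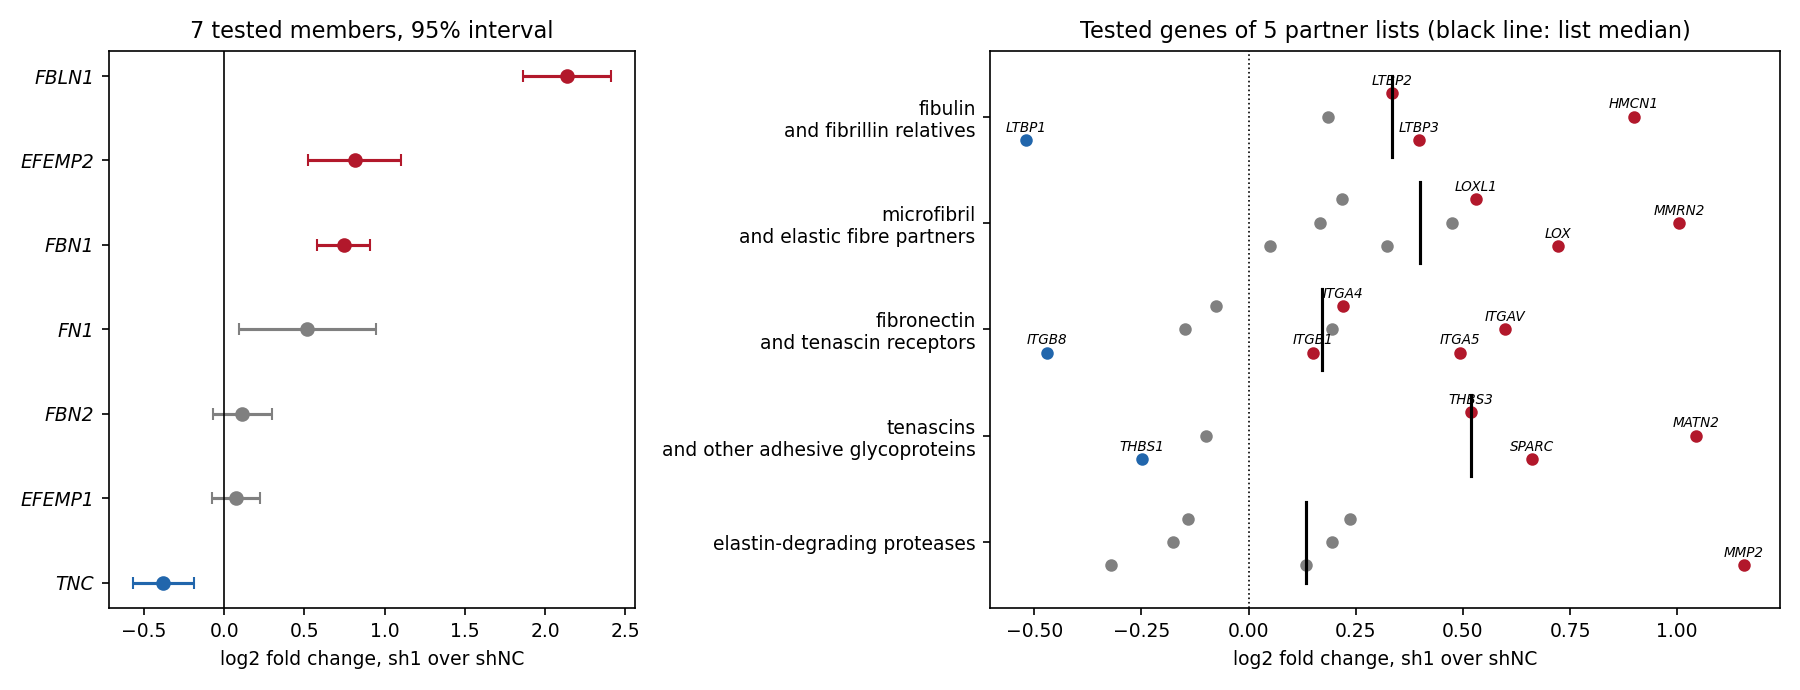
Log2 fold change of sh1 over shNC (horizontal axes) for the 7 tested members with 95% intervals (left) and for the tested genes of 5 lists of partners (right, black bars at list medians), in red where called higher, blue where called lower and grey where not called at an adjusted p of 0.05. FBLN1 lies apart at 2.14, and TNC (-0.38) is the only member on the lower side that was called.

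Some of these genes deviated from their group means in the same libraries. Relative to the mean log2 CPM of its own group, FN1 was 0.80 higher in shNC replicate 3 and 0.60 higher in shNC replicate 4, and EFEMP2 was 0.48 and 0.43 higher in the same libraries. TNC was 0.14 and 0.34 higher in these libraries. The same 2 libraries held the highest RUNX2 of the shNC group, 44.2 and 46.2 CPM, against 35.5 to 37.96 CPM in the others. With the group means removed, the 3 genes most like FN1 over the 12 libraries were LOXL3 (Pearson r 0.98), a lysyl oxidase-like enzyme, LRP1 (0.97), an endocytic receptor, and VCAN (0.96), a large chondroitin sulphate proteoglycan, out of 13119 genes compared. All 3 were higher in sh1 in edgeR, with log2 fold changes of 0.78, 0.76 and 1.10 (adjusted p = 4.9e-06, 7.3e-04 and 1.7e-05). Among the members, EFEMP2 had the closest pattern to FN1 (0.89), followed by TNC (0.77) and FBN1 (0.73). FBLN1 was at 0.43, EFEMP1 at 0.03 and FBN2 at -0.20. The 3 genes most like FBLN1 were PIGL, HIRIP3 and NRAV (0.85 to 0.87), and none of them was called. These coefficients share 1 scaling and the same 12 libraries, and they carry no test.

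**Figure D4:**
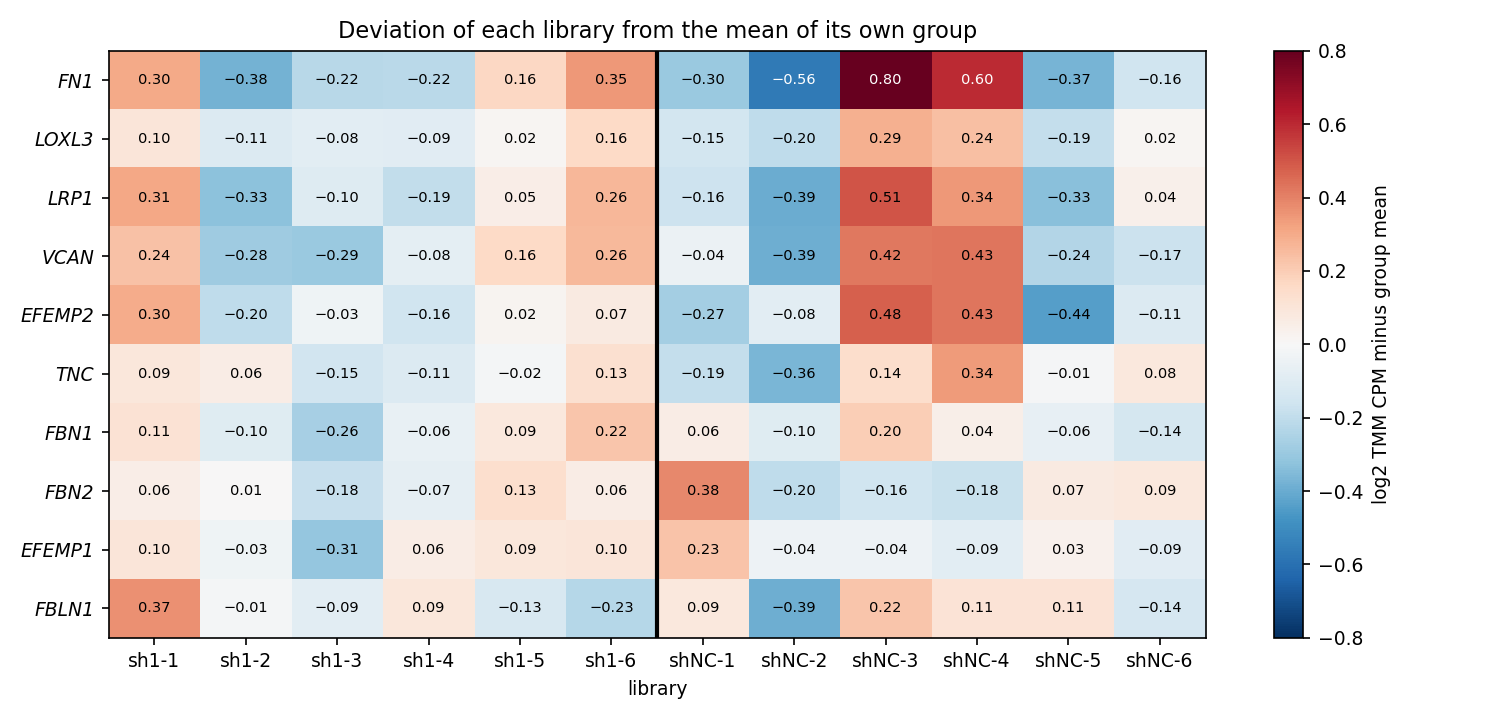
Deviation of each library from the mean of its own group in log2 CPM (colour and printed value) for 7 members and the 3 genes most like FN1 (rows) in the 12 libraries (columns, sh1 left of the black line and shNC right of it). FN1, LOXL3, LRP1, VCAN and EFEMP2 are high together in shNC replicates 3 and 4, at 0.80 and 0.60 for FN1.

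Genes that work with these proteins were counted from 5 lists. Of their 56 genes, 55 were found by symbol and 33 were tested. In edgeR, 14 were called higher and 3 lower in sh1, with a median log2 fold change of 0.22, beside 12.8% and 13.3% of all tested genes. Whether each passed the filter in both groups was not checked. With at least 10 counts required in every library, 13 were called higher. No set test was made, and nothing particular to the lists follows from these counts.

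Of the relatives of fibulins and fibrillins, 5 of 8 were tested, 3 were higher and 1 was lower. HMCN1, a giant fibulin-family protein also called fibulin-6, was higher by a log2 fold change of 0.90 (adjusted p = 0.0013) at a low level (median 0.153 FPKM in sh1 and 0.0898 FPKM in shNC). The latent TGF-beta binding proteins, which tether latent growth factor to fibrillin microfibrils, went in both directions. LTBP2 and LTBP3 were higher by 0.33 (adjusted p = 0.0022) and 0.40 (adjusted p = 0.027) on the log2 scale, whereas LTBP1 fell by 0.52 (adjusted p = 2.0e-04). LTBP1 had a median of 13.1 FPKM in sh1 and 17.9 FPKM in shNC, and its groups did not overlap. Without shNC replicate 3, 2 relatives were called lower.

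Of the 16 microfibril and elastic fibre partners, 15 were found by symbol (ADAMTSL6 was not), 8 were tested and 3 were higher. LOX, the lysyl oxidase that cross-links elastin and collagen, had a median of 14.4 FPKM in sh1 and 8.67 FPKM in shNC (log2 fold change 0.72, adjusted p = 0.0025). LOXL1, its relative that acts on elastin, had 1.91 FPKM in sh1 and 1.45 FPKM in shNC (0.53, adjusted p = 0.0083). MMRN2, a multimerin of the EMILIN family, was higher by 1.01 (adjusted p = 0.016) at levels of at most 0.216 FPKM. Its median was 0.161 FPKM in sh1 and 0.0732 FPKM in shNC. Whether it passed the filter through the sh1 libraries alone was not checked. With at least 10 counts required in every library, 2 genes of this list were called higher.

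Of the receptors for fibronectin and tenascin, 8 of 11 were tested, 4 were higher and 1 was lower. ITGA5, the alpha chain of the classical fibronectin receptor, had a median of 60.8 FPKM in sh1 and 42.3 FPKM in shNC (log2 fold change 0.49, adjusted p = 1.8e-04). ITGAV, the alpha chain of the vitronectin receptors, had 47.2 FPKM in sh1 and 30.8 FPKM in shNC (0.60, adjusted p = 5.7e-06). Neither gene overlapped between the groups. The changes of ITGB1, the common beta chain (0.15, adjusted p = 0.030), and ITGA4 (0.22, adjusted p = 0.035) were smaller, and ITGB8 was lower (-0.47, adjusted p = 0.023) at under 0.5 FPKM. Only 2 receptors were called higher without sh1 replicate 6 or without shNC replicate 6. The number was also 2 with a block for the replicate number and with limma on log2(FPKM + 1) and no filter. ITGB8 was not called without sh1 replicate 1, sh1 replicate 2 or shNC replicate 3, or in any limma fit.

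Of 12 tenascins and other adhesive glycoproteins, 5 were tested, 3 were higher and 1 was lower. SPARC, also called osteonectin, a collagen-binding protein of bone matrix, had a median of 477 FPKM in sh1 and 294 FPKM in shNC (log2 fold change 0.66, adjusted p = 5.6e-07). MATN2, a matrilin of filamentous matrix networks, and THBS3, a thrombospondin, were higher by 1.04 (adjusted p = 1.4e-05) and 0.52 (adjusted p = 0.032). THBS1, an abundant thrombospondin, was lower (-0.25, adjusted p = 0.022), with a median of 161 FPKM in sh1 and 202 FPKM in shNC. The other tenascins on the list (TNR, TNN and TNXB) did not pass the filter. THBS1 was not called without sh1 replicate 3, 4 or 5, without shNC replicate 2 or 5, or in any limma fit.

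Of 9 proteases that can degrade elastin, 7 were tested and MMP2 was the one called. MMP2, a gelatinase that also cleaves fibrillin and fibronectin, had 13.1, 14.8 and 18.9 FPKM (lowest, median and highest) in sh1, against 5.71, 6.49 and 8.57 FPKM in shNC. The groups did not overlap, and the log2 fold change was 1.16 (SE 0.11, adjusted p = 6.1e-07). Without sh1 replicate 3 or without shNC replicate 1, 1 protease was called lower.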

How the data were processed

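Polyadenylated RNA of 12 libraries of SJSA-1 cells was sequenced as read pairs with a kit that does not mark strand. The authors aligned the reads with HISAT2 (build GRCh38 per the submitters' processing notes) and counted them per gene with featureCounts. For neither tool is a version given in the sources used here. The authors deposited gene counts, a signal (each library's counts over its DESeq2 size factor) and FPKM values, whose gene lengths were the same in every library. Of 59248 rows, 572 had no Ensembl identifier and were kept in library totals, and 58207 identifiers had a symbol in GENCODE 44, the source of gene coordinates.

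Deposited counts were analysed in R 4.3.3 with the quasi-likelihood test of edgeR 4.0.16 after TMM scaling and filterByExpr, with Benjamini-Hochberg adjustment over 16489 genes. SE is the absolute log2 fold change over the square root of F. Exact two-sided permutation tests compared mean CPM of single members. The common biological coefficient of variation was 0.106, and totals were 11239638 to 19992974 counts. The members and lists were chosen with earlier results of these data known. The text names all members, RUNX2, called genes of the partner lists, marker genes, genes overlapping a member, and the 3 genes most like FN1 and most like FBLN1 (among genes with mean log2 CPM from 1 upwards). Alternatives were other scalings and filters, robust dispersion, DESeq2 1.42.0, limma 3.58.1 on FPKM values with 1 or 0.1 added before log2, a block for the replicate number, leaving out entries without an identifier, and leaving out each library. The edgeR procedure was tested on simulated data. Motifs were searched in RefSeq promoter windows of GRCh38.p14. The metabolome was not analysed here.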

Additional observations from a re-analysis of the deposited data

Results flagged for a closer look

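The highest and lowest library of each member in each group was set against the others of its group by Dixon's criterion for 6 values, and 3 of 19 checks passed it, against 0.95 expected by chance at 1 in 20. EFEMP1 in sh1 replicate 3 was at 193 CPM, against 234 to 256 CPM in the other sh1 libraries. EFEMP1 in shNC replicate 1 was at 267 CPM, against 214 to 233 CPM in the other shNC libraries. FBLN5 in sh1 replicate 5 was at 0.0637 CPM, which is a single count, against 0 in the other sh1 libraries. A lone count against 0 always passes the criterion, so the rate of 1 in 20 does not hold for this check.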

How the results depend on the processing

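Under 25 alternatives a result (13 settings and leaving out each of 12 libraries), FBLN1, EFEMP2 and FBN1 kept their direction and their call, with log2 fold changes of 0.86 to 2.20 for FBLN1. With no filter on low counts 5 members were called higher (FN1 and ELN in addition). With limma on log2(FPKM + 1) and no filter, 0 members and 1375 of all genes were called lower. The partner genes called lower numbered 1 in each of the limma fits, with log2(FPKM + 1), with log2(FPKM + 0.1) and with log2(FPKM + 1) and no filter, against 3 in edgeR, and leaving out libraries gave 10 to 16 called higher. Counts for single partner lists moved by over 1.5 times in 21 cases and not in 229. The cause of these shifts was not tested. For FN1 the log2 fold change ranged from 0.43 to 0.72 and the adjusted p from 0.0017 to 0.20. The difference in mean CPM of FBLN2 changed sign with the library left out (-0.0380 to 0.137). With the replicate block, FN1 was at 0.59 (adjusted p = 0.048 in edgeR) and 1680 genes were called higher and 1701 lower. Same-numbered libraries deviated from their group means with correlations of -0.28 to 0.05. The best match of each sh1 library was a shNC library of another number, at 0.15 to 0.25. No label says whether the numbers pair libraries, and these untested correlations cannot settle it. The counts of FBLN2, FBLN5 and ELN (at most 20 per library) limit what can be said of them.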
